A study of Homo sapiens with 6 samples.

Results

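The enzymes, sensors and transporters that set the cholesterol content of a cell were followed in the human beta cell line EndoC-βH1, exposed to inflammatory cytokines. The set held 34 genes, chosen by name as genes of cholesterol synthesis, uptake, storage and efflux. All 34 were found, in 34 different loci among 61695 loci of the authors' deposited count tables, 6 of which also hold another gene, and all 34 were among the 30206 loci with an adjusted p. They also had 361 transcripts in the deposited isoform table.

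Messenger RNA had been sequenced from 3 libraries of cells exposed to a cytokine cocktail for 24 h and from 3 control libraries. The cocktail held IL-1β at 5 ng/ml, TNF-α at 10 ng/ml, IFN-γ at 50 ng/ml and IL-17 at 100 ng/ml. Both groups grew in a serum-free medium with 11 mM glucose, and cells adhered for 24 h before cytokines were added. The labels call the control cells "before cytokine exposure", while the extraction protocol speaks of treatment with or without them for that time, so hours in culture and cytokine exposure cannot be told apart with certainty. EndoC-βH1 is a single line made from human fetal pancreas by viral large T antigen and telomerase, so it proliferates, unlike most adult beta cells. The deposited tables give 1 comparison, cytokine over control, and hold no values per library. The deposited standard error (SE) and the 95% interval worked out from it therefore stand for the replicate error throughout. Nothing in the labels states whether each library had its own culture. The p-values therefore cover the spread of these 6 libraries alone, which may be technical.

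Libraries averaged 40881975 normalized counts, of which the 34 loci held 0.563%. Of these loci, 30 had a mean of at least 1000 counts, and their SE lay between 0.02 and 0.06 on the log2 scale. Among beta cell markers, the transcription factor gene PDX1 stood at 143 FPKM with cytokines and 142 FPKM in control. The zinc transporter gene SLC30A8 stood at 178 FPKM with cytokines and 273 FPKM in control. Of 11 such markers, CHGA was listed at 0 FPKM in both groups because Cuffdiff marked its locus as holding too many reads to fit, and the others lay between 1.60 and 178 FPKM with cytokines and between 1.32 and 274 FPKM in control. Of 10 macrophage markers, 7 stayed under 1 FPKM in both groups, and CD163 and MARCO were listed at 0 FPKM in both. Their summed level was 3.74 FPKM with cytokines and 4.12 FPKM in control.

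Cholesterol is built from acetyl-CoA through mevalonate, isoprenoid units, squalene and lanosterol. When sterol runs low in the endoplasmic reticulum, SCAP escorts the transcription factor SREBP2 to the Golgi, where it is cut and released to switch on the synthesis genes and uptake genes. INSIG proteins hold SCAP back when sterol is plentiful. Oxysterols, which form from cholesterol, do the reverse on both arms: they bind INSIG and stop SREBP2, and they activate the nuclear receptors LXRα and LXRβ, which switch on the efflux pumps ABCA1 and ABCG1. CH25H, cholesterol 25-hydroxylase, makes such an oxysterol and is known as an interferon-induced gene of macrophages. In beta cells, cholesterol content affects insulin granules and exocytosis.

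Promoter windows from RefSeq (GRCh38.p14) were at hand for 30 of the 34 genes, from 250 bases before to 50 bases after a start site. The windows below are shown because they belong to synthesis, transport and control genes that rose, to SREBF2 and ABCA1, which fell, and to the 25-hydroxylase. Each is cut to the bases before the outermost start of its gene in GENCODE release 44 and is written 5′ to 3′ on the gene's own strand. Capitals mark the sterol regulatory element TCACNCCAC, the NF-Y motif CCAAT and the E-box CACGTG, on either strand.
HSD17B7, chr1:162790452-162790701, plus strand: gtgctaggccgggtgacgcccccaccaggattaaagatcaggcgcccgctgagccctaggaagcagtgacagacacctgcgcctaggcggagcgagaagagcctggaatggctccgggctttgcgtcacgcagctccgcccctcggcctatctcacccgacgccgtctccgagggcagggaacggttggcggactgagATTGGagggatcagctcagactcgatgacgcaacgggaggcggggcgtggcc
MSMO1, chr4:165327419-165327666, plus strand: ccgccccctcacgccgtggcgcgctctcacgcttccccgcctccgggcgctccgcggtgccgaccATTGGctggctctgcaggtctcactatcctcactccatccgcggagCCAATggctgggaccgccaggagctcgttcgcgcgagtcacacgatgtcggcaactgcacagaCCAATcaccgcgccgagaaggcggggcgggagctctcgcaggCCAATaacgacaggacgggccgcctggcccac
STARD4, chr5:111512591-111512785, minus strand: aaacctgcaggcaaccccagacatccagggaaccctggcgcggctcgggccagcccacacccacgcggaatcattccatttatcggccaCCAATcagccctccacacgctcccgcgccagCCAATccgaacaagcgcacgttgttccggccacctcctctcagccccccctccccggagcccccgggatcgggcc
INSIG1, chr7:155297628-155297775, plus strand: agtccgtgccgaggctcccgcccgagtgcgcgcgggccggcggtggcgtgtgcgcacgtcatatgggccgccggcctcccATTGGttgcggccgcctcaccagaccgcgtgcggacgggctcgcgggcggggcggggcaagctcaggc
SREBF2, chr22:41832855-41833104, plus strand: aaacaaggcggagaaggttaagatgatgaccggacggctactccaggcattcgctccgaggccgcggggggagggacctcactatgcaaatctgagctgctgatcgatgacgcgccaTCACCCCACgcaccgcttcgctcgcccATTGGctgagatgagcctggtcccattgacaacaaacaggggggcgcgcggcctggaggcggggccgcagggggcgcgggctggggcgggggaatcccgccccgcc
ABCA1, chr9:104928156-104928405, minus strand: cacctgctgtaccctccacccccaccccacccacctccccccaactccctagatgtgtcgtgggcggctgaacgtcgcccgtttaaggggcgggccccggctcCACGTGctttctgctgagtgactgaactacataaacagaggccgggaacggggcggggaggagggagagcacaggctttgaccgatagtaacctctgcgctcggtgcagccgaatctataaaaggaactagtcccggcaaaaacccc
CH25H, chr10:89207318-89207567, minus strand: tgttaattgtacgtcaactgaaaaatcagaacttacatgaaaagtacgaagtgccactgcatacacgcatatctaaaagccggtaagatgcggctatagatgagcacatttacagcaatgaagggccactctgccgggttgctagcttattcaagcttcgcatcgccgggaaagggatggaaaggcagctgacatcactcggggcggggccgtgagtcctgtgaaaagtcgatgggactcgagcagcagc

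MSMO1 held 4 CCAAT matches in its window and STARD4 held 2. SREBF2 alone among the 30 held an exact match to TCACNCCAC (3.33% of 30 genes, against 1.39% of 27305 genes with a promoter in RefSeq). Variant forms of the sterol regulatory element were not searched, so a window without a match may still hold one. No window of the CH25H gene held any of the 3 capitalised motifs. CCAAT was found in 16 of 18 SREBP2 target genes with a promoter, or 88.9%, in 43.8% of 6947 genes from loci of at least 1000 counts, and in 39.7% of all 27305 genes. The SP1 motif GGGCGG was found in 29 of the 30 genes, against 77.7% of the genes from abundant loci. The E-box was found in 5 of 30, or 16.7%, against 12.8% of the genes from abundant loci. All these shares were counted over the full windows, of which the printed stretches are a part. The E-box of INSIG1, at -55 from its RefSeq start, was counted but lies outside the printed stretch. The core of the interferon-stimulated response element was found in 1 of 30, GGPS1, against 4.04% of the genes from abundant loci. CACGTG reads the same on both strands and was counted once. A strict NF-κB consensus and a strict LXR consensus (a direct repeat with perfect repeats) were found in 0 of 30, against 0.227% and 0.0256% of all 27305 genes. A match is a run of letters and not a shown binding site, and motifs may overlap each other.

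At the deposited adjusted p threshold of 0.05, 22 of the 34 genes rose, 9 fell and 3 did not pass. Over all 30206 tested loci, 37.7% passed, 18.0% higher and 19.7% lower. Most of the 34 are abundant, and among 7868 loci of at least 1000 counts 78.2% passed, 32.9% higher and 45.3% lower. The share of the 34 that passed, 91.2%, thus stands near that of abundant loci, and what differs from it is the direction. The changes were small: the median log2 fold change of the 34 was 0.23 and the median size regardless of sign 0.26. Over loci of at least 1000 counts the median was -0.06 and the median size 0.23. STARD4, HSD17B7, CH25H and ABCA1, 4 of the 34, passed with a difference of 1.5-fold or more, against 16.1% of all tested loci. Of these, only STARD4 and HSD17B7 had a mean of at least 1000 counts, where 17.1% of loci did so. In a bulk culture, fewer cells with a transcript and less of it per cell cannot be told apart.

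**Figure D1:**
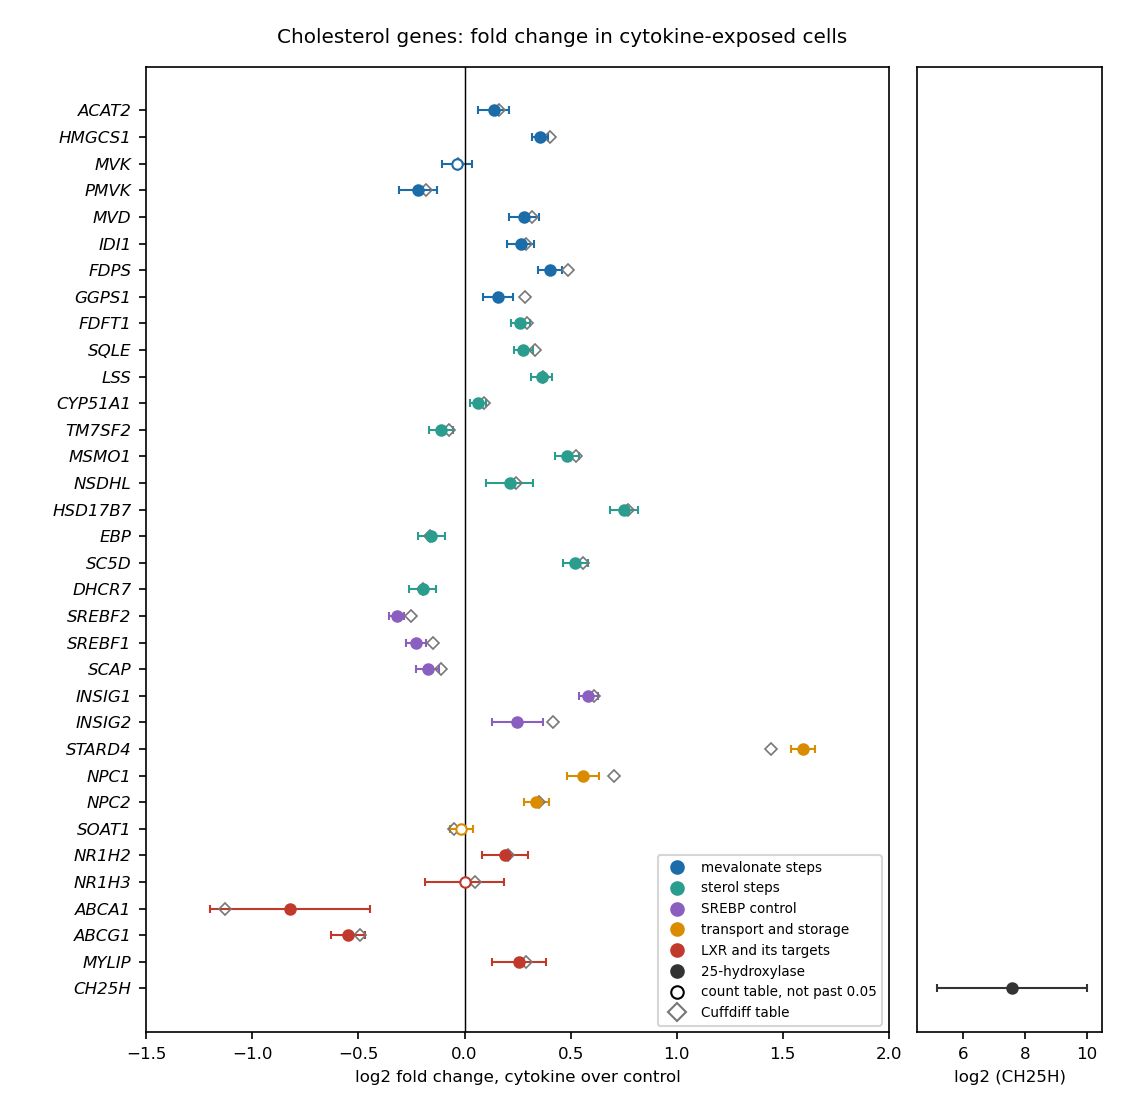
Log2 fold change of cytokine over control for the 34 cholesterol genes, ordered and coloured by role, from the authors' deposited count table. Circles are the deposited estimates with 95% intervals from the deposited SE, filled where the adjusted p passed 0.05, and diamonds are the deposited Cuffdiff values; CH25H, at 7.58, has an axis of its own. Most synthesis genes lie right of 0, and ABCA1 and ABCG1 lie left of it.

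**Figure D2:**
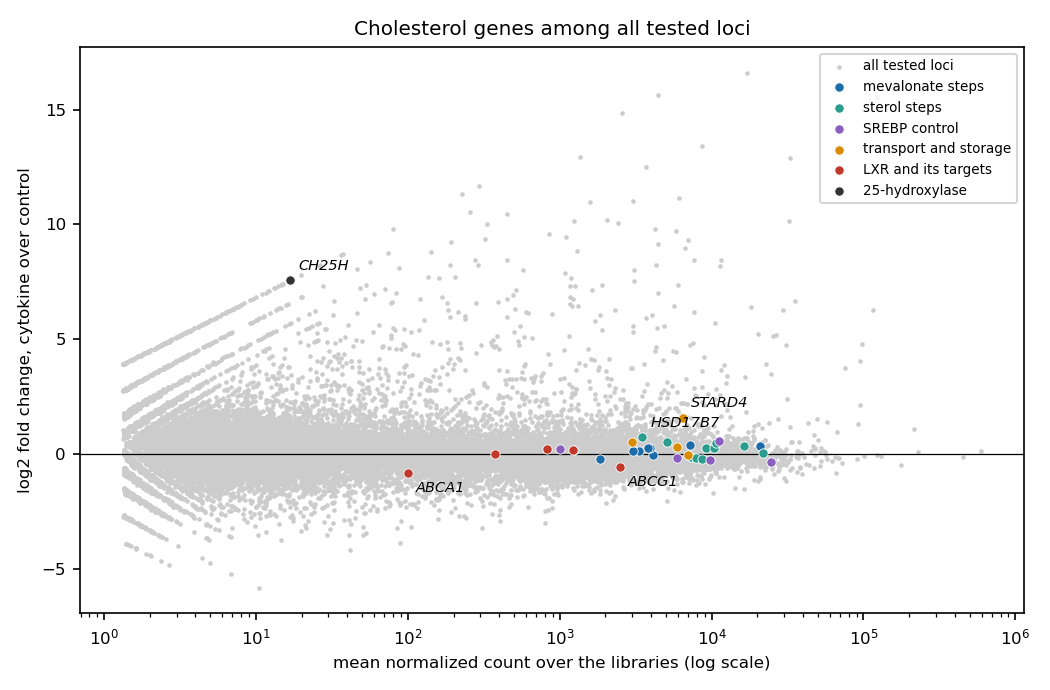
Log2 fold change of cytokine over control against the mean normalized count for all 30206 tested loci, in grey, with the 34 cholesterol genes coloured by role. Of the 34, 30 lie at 1000 counts or more, and MYLIP, NR1H3, ABCA1 and CH25H lie at lower counts.

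In the mevalonate part of the pathway, 6 of 8 genes rose, 1 fell and 1 did not pass. HMGCS1, which makes the substrate for mevalonate synthesis, had a mean of 23543 normalized counts with cytokines and 18415 in control. It rose by 0.35 ± 0.02 (log2 ± SE) in the authors' deposited table (DESeq adjusted p = 2.94e-76), 1.28-fold. MVK and PMVK, the kinases that phosphorylate mevalonate in turn, did not follow. MVK had 4040 normalized counts with cytokines and 4142 in control, a deposited log2 fold change of -0.04 ± 0.04, with a 95% interval of -0.11 to 0.03. PMVK had 1711 counts with cytokines and 1994 in control and fell by 0.22 ± 0.05 in the authors' deposited table. MVD, which turns the product into the first isoprenoid, rose by 0.28 ± 0.04 and IDI1, its isomerase, by 0.26 ± 0.03 in the deposited table. The leading MVD transcript, however, stood at 21.3 FPKM with cytokines and 21.5 FPKM in control, and 0 of 15 tested MVD transcripts passed.

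FDPS, which joins isoprenoids into farnesyl diphosphate, rose by an amount whose interval overlaps that of HMGCS1. Its locus, which also holds RUSC1, had 8267 normalized counts with cytokines and 6246 in control, a deposited log2 fold change of 0.40 ± 0.03. FDPS transcripts alone summed to 311 FPKM with cytokines and 218 FPKM in control in the authors' deposited isoform table. The antisense RNA RUSC1-AS1, whose span overlaps FDPS, stood at 1.09 ± 0.09 in the deposited table, and the strand setting of the counting is not known. GGPS1, which makes geranylgeranyl diphosphate for protein prenylation, rose by 0.16 ± 0.04 in the deposited count table. Only 59.4% of that locus's FPKM with cytokines and 48.3% in control came from GGPS1 transcripts, which summed to 18.2 FPKM with cytokines and 12.1 FPKM in control, a log2 ratio of 0.58. That ratio has no error, and 0 of 5 tested GGPS1 transcripts passed (Cuffdiff q = 0.117 for the leading one).

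ACAT2, the thiolase that starts the pathway, had 3480 normalized counts with cytokines and 3165 in control, a log2 fold change of 0.14 ± 0.04 (DESeq adjusted p = 0.000902) in the authors' deposited table. The authors' deposited Cuffdiff table put it at 0.16 but not past its threshold (q = 0.558). Its span overlaps SOD2 and TCP1 on the opposite strand, which the authors' deposited table puts at 2.19 ± 0.03 and -0.43 ± 0.03, and their part in the ACAT2 value was not tested.

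Of the 11 genes that act from squalene onward, 8 rose and 3 fell. HSD17B7, a ketosteroid reductase of sterol demethylation at chr1:162790702-162812823 (hg38, GENCODE release 44), had 4393 normalized counts with cytokines and 2610 in control. That is 1.68-fold, with a 95% interval of 1.61 to 1.76, or a log2 fold change of 0.75 ± 0.03 in the authors' deposited table (DESeq adjusted p = 5.41e-107). SC5D, the lathosterol desaturase, had 6004 counts with cytokines and 4181 in control and rose by 0.52 ± 0.03 in the deposited table. MSMO1, which oxidises the methyl groups at the same stage as HSD17B7, had 12479 counts with cytokines and 8927 in control and rose by 0.48 ± 0.03. NSDHL, the decarboxylating dehydrogenase that acts between them, rose by 0.21 ± 0.06 in the deposited table. The 3 genes of this demethylation step thus all rose, by amounts whose 95% intervals do not overlap.

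The enzymes that make and close squalene all rose. In the authors' deposited table, FDFT1, squalene synthase, rose by 0.26 ± 0.02, SQLE, squalene epoxidase, by 0.28 ± 0.02 and LSS, lanosterol synthase, by 0.36 ± 0.03. The intervals of FDFT1 (0.22 to 0.31) and SQLE (0.23 to 0.32) overlap, while that of LSS (0.31 to 0.41) lies above that of FDFT1. CYP51A1, the lanosterol demethylase and after SREBF2 the locus with the most reads of the 34, barely moved. It had 22162 normalized counts with cytokines and 21216 in control, 1.04-fold, in a locus with LRRD1 (adjusted p = 0.00420 in the authors' DESeq table), and the deposited Cuffdiff test did not call it (q = 0.243). Its span overlaps AKAP9 on the other strand, at 0.21 ± 0.02 in the deposited table.

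DHCR7, EBP and TM7SF2 were lower with cytokines. DHCR7, the final reductase, had 8101 normalized counts with cytokines and 9285 in control and fell by 0.20 ± 0.03 in the authors' deposited table. EBP, the sterol isomerase, counted with PORCN, had 7436 counts with cytokines and 8293 in control and fell by 0.16 ± 0.03. EBP transcripts made up 96.6% of the FPKM of that locus with cytokines and 97.6% in control. TM7SF2, a sterol reductase counted with VPS51, stood at -0.11 ± 0.03 in the authors' deposited table (DESeq adjusted p = 0.000686), but the deposited Cuffdiff test did not call it (q = 0.623). With the median of abundant loci set to 0 in the authors' deposited DESeq values, TM7SF2 stood at -0.05 and was no longer called (adjusted p = 0.149). TM7SF2 transcripts made up only 53.8% of the FPKM of their locus with cytokines and 54.3% in control.

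Over the whole route, 14 of 19 synthesis genes rose, 4 fell and 1 did not pass, with a median log2 fold change of 0.26. All 19 had a mean of at least 1000 counts, and among such loci 32.9% rose and 45.3% fell. The summed FPKM of their transcripts was 1955 with cytokines and 1662 in control.

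The control genes of the pathway moved in both directions. SREBF2, which encodes SREBP2, had 21953 normalized counts with cytokines and 27395 in control. It fell by 0.32 ± 0.02 in the authors' deposited table (DESeq adjusted p = 1.28e-66), so transcripts of the activator fell while those of most of its targets rose. SREBF1, which encodes the related SREBP1 and is itself an LXR target, had 8945 counts with cytokines and 10489 in control and a deposited log2 fold change of -0.23 ± 0.02. SCAP, the escort of both, had 5557 counts with cytokines and 6271 in control and stood at -0.17 ± 0.03. The deposited Cuffdiff gene test called neither SREBF1 (q = 0.307) nor SCAP (q = 0.339). INSIG1, the retention protein that SREBP2 itself induces, had 13341 normalized counts with cytokines and 8900 in control, a fold with a 95% interval of 1.45 to 1.55. Its log2 fold change was 0.58 ± 0.02 in the authors' deposited table. INSIG2, the second retention protein, had 1092 counts with cytokines and 919 in control and rose by 0.25 ± 0.06.

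STARD4, a soluble carrier that moves sterol between membranes and an SREBP2 target, changed more than any other abundant gene of the set. It had 9700 normalized counts with cytokines and 3213 in control, 3.02-fold, with a 95% interval of 2.90 to 3.14. The authors' deposited table gave 1.59 ± 0.03 on the log2 scale and listed the adjusted p as 0. The deposited Cuffdiff table put it at 1.44 (q = 0.000232), and STARD4 transcripts alone summed to 53.6 FPKM with cytokines and 21.1 FPKM in control. STARD4 lies at chr5:111496033-111512590 on the minus strand (hg38, GENCODE release 44), and STARD4-AS1 on the opposite strand stood at 0.06 ± 0.13 in the deposited table.

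Genes that release cholesterol from lysosomes also rose. NPC1, the membrane protein of lysosomal cholesterol export, had 3538 normalized counts with cytokines and 2402 in control and rose by 0.56 ± 0.04 in the authors' deposited table. NPC2, the soluble partner that hands cholesterol to NPC1, had 6641 counts with cytokines and 5251 in control and rose by 0.34 ± 0.03. SOAT1, which esterifies cholesterol for storage, had 6961 counts with cytokines and 7035 in control. Its deposited log2 fold change was -0.02 ± 0.03, with a 95% interval of -0.07 to 0.04.

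**Figure D3:**
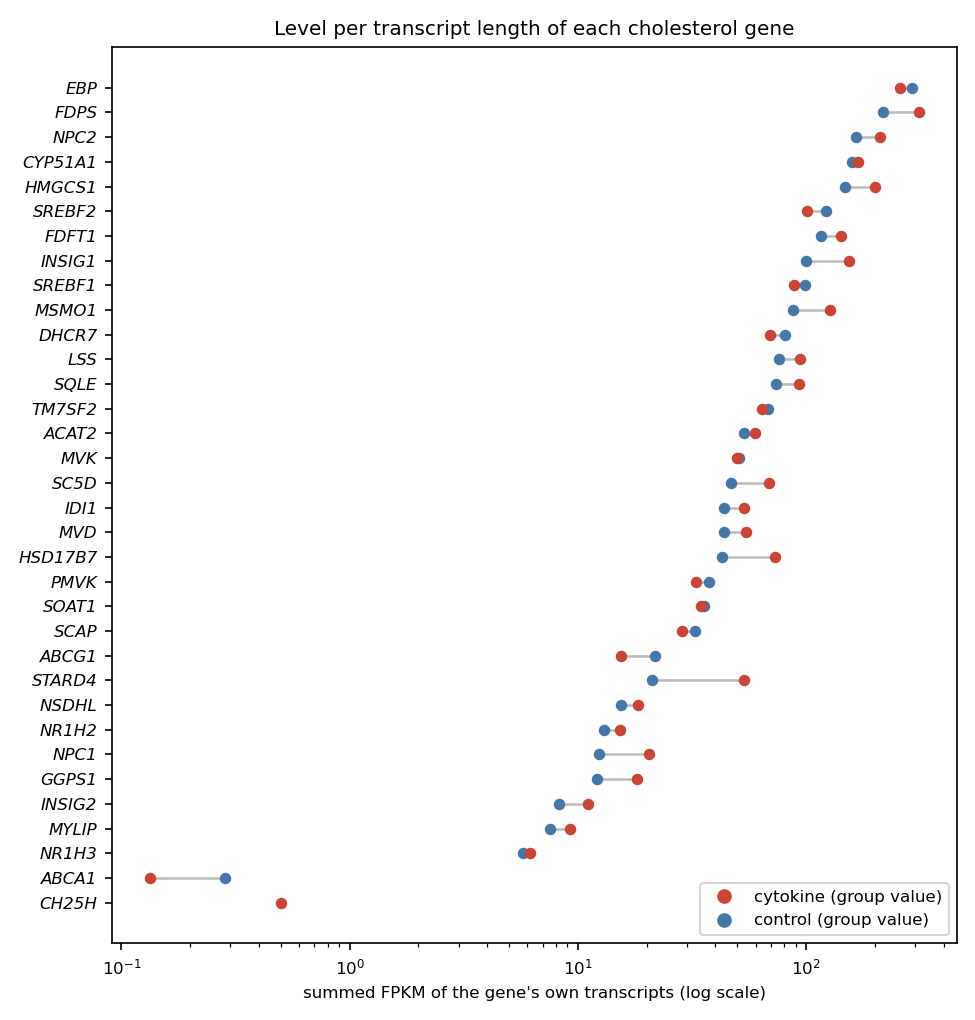
Summed FPKM of each gene's own transcripts on a log axis, from the authors' deposited isoform table, ordered by the control level, with cytokine in red and control in blue. Each point is a group value of the authors with no error; CH25H, listed at 0 FPKM in control, has a cytokine point only. STARD4, at 53.6 FPKM with cytokines and 21.1 FPKM in control, shows the widest gap among genes above 1 FPKM.

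The efflux pumps ABCA1 and ABCG1 fell. ABCA1, which loads cholesterol onto apolipoprotein, had 72.2 normalized counts with cytokines and 128 in control and fell by 0.82 ± 0.19 in the authors' deposited table (DESeq adjusted p = 8.10e-05). The gene lies at chr9:104781006-104928155 on the minus strand and is low in these cells, at 0.134 FPKM with cytokines and 0.283 FPKM in control. ABCG1, a sterol transporter known in beta cells for a role in insulin granules, had 2015 counts with cytokines and 2948 in control and fell by 0.55 ± 0.04 in the authors' deposited table (DESeq adjusted p = 4.51e-42). MYLIP, an LXR target that marks the lipoprotein receptor for degradation, had 893 counts with cytokines and 748 in control and rose by 0.26 ± 0.07.

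The LXR genes themselves changed little. NR1H2, which encodes LXRβ, had 1311 normalized counts with cytokines and 1150 in control, a deposited log2 fold change of 0.19 ± 0.05 that the deposited Cuffdiff test did not call (q = 0.121). NR1H3, which encodes LXRα, had 375 counts with cytokines and 374 in control, with a 95% interval of the log2 fold change from -0.19 to 0.19. NR1H3 overlaps ACP2 on the opposite strand, which stood at 1.17 ± 0.04 in the deposited table, and its part in the NR1H3 value was not tested.

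CH25H, at chr10:89205629-89207317 on the minus strand, was detected with cytokines. It had 33.5 normalized counts per library with cytokines and was listed at 0 FPKM in control in the authors' deposited Cuffdiff table, where it reached 0.50 FPKM with cytokines (q = 0.000232). Its fitted control mean, 0.175 counts, lay under 1 normalized count per library. Of 97 loci with a mean over 5 counts, a log2 fold change over 3 and control listed at 0 FPKM, 46 had a fitted control mean between 0.17 and 0.18. Taking 3 reads in the whole control group as the floor, CH25H was at least 33.5-fold higher with cytokines. The log2 fold change of 7.58 ± 1.24 in the authors' deposited table (DESeq adjusted p = 6.20e-09) rests on that fitted control value. Even so, its level per length stayed under that of every other gene of the set except ABCA1. Of the 7 macrophage markers with an adjusted p, 0 passed as higher and 2 passed as lower with cytokines, in the authors' DESeq table. Over all tested loci, 18.0% passed as higher and 19.7% as lower. CD68 stood at 1.35 FPKM with cytokines and 0.629 FPKM in control, and PTPRC at 0.00761 FPKM with cytokines and 0.0274 FPKM in control.

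The SREBP2 arm and the LXR arm were set side by side, and no test of a list against another was made. Of 21 textbook SREBP2 targets among the genes, 15 rose and 5 fell (TM7SF2, EBP, DHCR7, PMVK and SREBF2), and MVK did not pass, with a median log2 fold change of 0.26. Each of the 21 had a mean of at least 1000 counts, where 32.9% of loci rose and 45.3% fell. Of 5 LXR targets, MYLIP rose, ABCA1, ABCG1 and SREBF1 fell and NR1H3 did not pass, with a median of -0.23. That median is the value of SREBF1 itself, which the deposited Cuffdiff gene test did not call (q = 0.307). Only 2 of the 5 had a mean of at least 1000 counts, and over all tested loci 18.0% rose and 19.7% fell. A list of 5 genes is too short to be told apart from either share. The 95% interval of ABCG1, -0.63 to -0.47, lies below that of each of the 21 SREBP2 targets, the lowest of which is SREBF2 at -0.36 to -0.28. The interval of ABCA1, -1.20 to -0.44, does too, whereas MYLIP (0.13 to 0.38) lies among the SREBP2 targets. These comparisons cover the 21 alone. Of 20 other genes of synthesis, uptake and SREBP processing, described below, 5 rose, 14 fell and 1 did not pass. CH25H rose while both arms held members that moved in either direction.

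Levels per transcript length, from the authors' deposited isoform table, ranked EBP, FDPS, NPC2, CYP51A1 and HMGCS1 highest in control cells, between 291 and 148 FPKM. With cytokines, FDPS, EBP and NPC2 led at 311, 257 and 211 FPKM. These are group values without an error, so neighbours in the order may not differ. The efflux pumps and LXR genes were at the low end in both groups: ABCG1 stood at 15.5 FPKM with cytokines and 21.8 FPKM in control, and NR1H3 at 6.18 FPKM with cytokines and 5.77 FPKM in control.

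The authors' deposited Cuffdiff gene table called 25 of the 34, 19 higher and 6 lower, against 35.7% of 21865 tested genes. All 25 were called in the same direction in the count table, and 6 were called in the count table alone. Both tools ran on the same libraries.

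Of the 361 transcripts, 235 were tested in the deposited isoform table, and 22 rose and 7 fell at q under 0.05. Over the whole table, 9.87% of 95649 transcripts passed, 5.17% higher and 4.7% lower. The 29 came from 23 genes, and none went against its gene. The most abundant transcript was the same in both groups for all 33 genes with a control level. Both coding transcripts that make up most of HMGCS1 rose, by 0.73 for ENST00000325110.9 and 0.30 for ENST00000433297.2 in the authors' deposited table. ENST00000325110.9 gave 35.9% of HMGCS1 FPKM with cytokines and 29.1% in control. In LSS, the coding ENST00000457828.5 rose by 0.29, while ENST00000474319.1, annotated as a retained intron, rose by 1.28 and gave 11.7% of LSS FPKM with cytokines and 5.96% in control. The leading NPC1 transcript rose by 0.53 but gave 54.2% of NPC1 FPKM with cytokines and 62.3% in control. The leading STARD4 transcript, ENST00000296632.6, rose by 1.57 and gave 62.8% with cytokines and 53.8% in control. Of the 2 main ABCG1 transcripts, ENST00000361802.5 fell by 0.81 and ENST00000398449.6 fell by 0.38. Leading transcripts of SREBF1 and SCAP passed at q = 0.0496 and q = 0.00982, both lower, although their genes did not pass in the Cuffdiff gene table. Shares have no error in these tables, so differences between them are given as values.

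**Figure D4:**
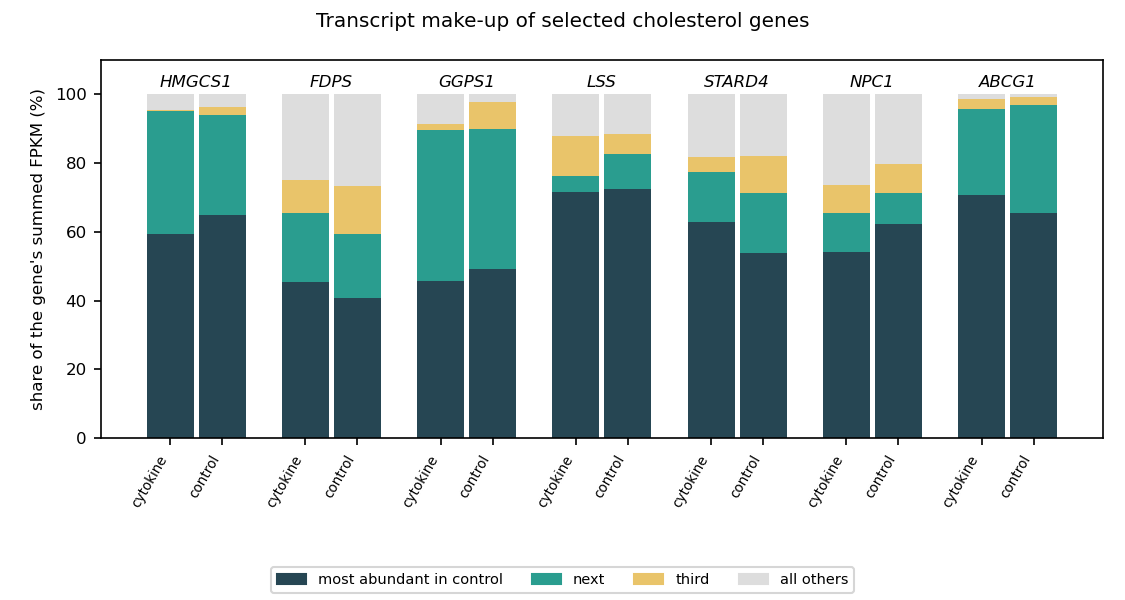
Share of each gene's summed FPKM held by its transcripts, in percent, for cytokine (left bar of each pair) and control (right bar) group values of the authors' deposited isoform table; colours follow the rank in control. The transcript most abundant in control gave 59.4% of HMGCS1 FPKM with cytokines and 65.0% in control, and 62.8% of STARD4 FPKM with cytokines and 53.8% in control.

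Other genes of cholesterol handling, from lists drawn up beside the 34, moved in both directions. Of 20 other genes of synthesis, uptake and SREBP processing, 5 rose, 14 fell and 1 did not pass, with a median log2 fold change of -0.12. A mean of at least 1000 counts was reached by 18 of the 20, and 32.9% of such loci rose and 45.3% fell. With the median of abundant loci set to 0, 6 were higher, 8 lower and 6 not past the threshold, so most of the balance towards lower calls depends on that setting. ERLIN1, a membrane protein of sterol-regulated degradation, shared a locus with CHUK that stood at 0.74 ± 0.02 in the authors' deposited table. ERLIN1 transcripts alone summed to 12.3 FPKM with cytokines and 5.65 FPKM in control. ACLY, which makes the acetyl-CoA for sterol and fatty acid synthesis, had 35202 normalized counts with cytokines and 37445 in control, a deposited log2 fold change of -0.09 ± 0.02 that the deposited Cuffdiff test did not call (q = 0.697). Of 27 tested genes of efflux, transport and oxysterols, 11 rose, 6 fell and 10 did not pass, with a median of 0.09, and 13 were higher and 6 lower with that median set to 0. By comparison, 18.0% of all tested loci rose and 19.7% fell as deposited.

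STARD5, a sterol-binding relative of STARD4 counted together with RP11-761I4.4, had 1221 normalized counts with cytokines and 125 in control and rose by 3.29 ± 0.10 in the authors' deposited table. STARD5 transcripts alone summed to 34.8 FPKM with cytokines and 3.87 FPKM in control. LIPA, the lysosomal lipase that frees cholesterol upstream of NPC2 and NPC1, shared a locus with SLC16A12 that stood at 1.05 ± 0.03 in the deposited table. LIPA transcripts alone summed to 22.0 FPKM with cytokines and 14.9 FPKM in control. ABCA2, a lipid transporter of endolysosomes, had 10395 counts with cytokines and 15286 in control and stood at -0.56 ± 0.02, while the deposited Cuffdiff test gave q = 0.0529. EBI3, which encodes an interleukin subunit and is no sterol gene, had entered this list by mistake for an oxysterol receptor of similar name and is left out of the 27. It had 104 counts with cytokines and 0.953 in control in values worked out from the authors' deposited table.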

How the data were processed

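Values came from 4 tables of the authors, all of the whole series, for 3 cytokine and 3 control libraries. Per the submitters' processing notes, the tools were Cuffdiff 2.2.1, DESeq, StringTie and STAR 2.5.2b, and the build hg38. Libraries were directional per the labels' protocols, but no source used here names the counter, its strand setting or the gene models. As deposited by the authors, each count signal is a mean of normalized read counts over all 6 libraries (base mean in the file headers). Per the file headers, log2 values are fold changes and their SE, and the score is the Wald or Cuffdiff statistic. The p-values, adjusted p-values and q-values are those of the authors as deposited. FPKM is given per group by the authors' Cuffdiff tables, per the file headers, where no p was under 5e-05.

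The tables hold no values per library, so the count model planned for that case was not run and the authors' deposited adjusted p at 0.05 was used, as the design provided. Group means follow from the deposited base mean and fold change, and 95% intervals from the deposited SE. Where control had no reads, a floor of 3 reads over the group was used. Recomputed over named and unnamed loci, the Benjamini-Hochberg adjustment was within 1.53e-15 of the deposited values. Unnamed loci held 1.34% of the counts. Steps were tested on simulated data. Coordinates and overlaps came from GENCODE release 44 on hg38, promoters from RefSeq. The genes and lists were chosen with earlier results of these data known. All 34 genes are named, and of the other lists the 2 largest changes and the 2 highest means past the threshold with at least 50 counts. A pair of genes under that rule is not reported here. Alternatives were re-centring, other filters on low counts, the Cuffdiff test, a threshold of 0.01, a change of at least 1.5-fold, single-symbol loci, other FPKM pseudocounts and, added after the data were seen, FPKM of a gene's own transcripts and the other genes without EBI3. Scripts ran in Python 3.11.15 with numpy 2.4.6, pandas 2.3.3, matplotlib 3.10.9 and scipy 1.17.1.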

Additional observations from a re-analysis of the deposited data

How the results depend on the processing

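No paired analysis was possible because the deposited tables hold no values per library, and for the same reason leaving out each replicate was not run. Requiring a change of at least 1.5-fold left 3 higher and 1 lower of the 34 genes, 2 higher and 0 lower of the SREBP2 targets, 0 higher and 1 lower of the LXR targets, and 9 higher and 3 lower of the other genes, or 8 higher and 3 lower without EBI3, a choice made after seeing the data. Over loci of a single symbol, 3 SREBP2 targets were lower and 11 of the other genes, EBI3 included, higher. The deposited Cuffdiff test called 13 of the other genes lower. Re-centring, for a median of abundant loci of -0.06, turned the uncalled MVK to 0.020 and SOAT1 to 0.040 and ended the call of TM7SF2. It moved the other genes, EBI3 included, to 20 higher and 14 lower, against 17 higher and 20 lower as deposited. Without EBI3, 16 were higher and 20 lower as deposited. Calls at adjusted p 0.01, without a filter on low counts and with a minimum of 10 counts kept each count within 1.5 times. With pseudocounts of 0.1 and 1, the FPKM difference of ABCA1 stood at -0.75 and -0.19. ABCA1 and CH25H rest on the fewest reads of the set. Of CH25H the Cuffdiff test gives no finite fold change, so it has no value under that alternative.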

Other observations

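Several genes of oxysterol metabolism and sterol transfer outside the naming rule were chosen for mention after their values were seen, and are given as values. The locus of CYP7B1, which hydroxylates 25-hydroxycholesterol, had 744 normalized counts with cytokines and 1447 in control. Its log2 fold change was -0.96 ± 0.06 (SE) in the authors' deposited table. CYP7B1 transcripts alone summed to only 0.317 of the locus's 2.65 FPKM with cytokines and 1.13 of 5.56 FPKM in control. HSD3B7, which acts on the products of CYP7B1, had 352 counts with cytokines and 130 in control and stood at 1.44 ± 0.13 in the deposited table. CYP46A1, the 24-hydroxylase known from neurons, had 259 counts with cytokines and 497 in control and stood at -0.94 ± 0.10 in the deposited table. Its own transcripts summed to 0.947 of the locus's 1.89 FPKM with cytokines and 2.44 of 3.74 FPKM in control. Of the carriers that move cholesterol from the plasma membrane to the endoplasmic reticulum, GRAMD1C stood at 1.37 ± 0.08 and GRAMD1B at 0.91 ± 0.03 in the authors' deposited table, while GRAMD1A, at 0.06 ± 0.03, was not past the threshold. GRAMD1B transcripts alone summed to only 3.85 of their locus's 16.5 FPKM with cytokines and 1.89 of 8.62 FPKM in control. GRAMD1C had 1035 counts with cytokines and 400 in control. NCEH1, which splits cholesteryl esters, had 774 counts with cytokines and 502 in control and stood at 0.62 ± 0.08 in the deposited table. Of the listed relatives of ABCA1, ABCA2 fell as given above, while ABCA5, in a locus with ABCA10, stood at 0.49 ± 0.03. ABCA7 stood at 0.24 ± 0.04, which the deposited Cuffdiff test did not call (q = 0.136). GPR183, a receptor for oxysterols derived from the product of CH25H, had 1.83 counts on average over all libraries, too few to show a difference at this depth.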
